A study of Mus musculus with 10 samples.

Results

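The genes described here are 33 genes of the unfolded protein response and of protein folding in the endoplasmic reticulum (ER), out of the 55359 gene identifiers counted in the series. They were chosen by name from the ER stress, chaperone, degradation and translocation machinery, with earlier results of these data known. All 33 passed the filter on low counts that left 15777 genes to test. The cells were pmel-1 T cells, CD8+ cells of a mouse line with a transgenic T cell receptor for gp100, an antigen of melanocytes and melanoma. Spleen cells had been activated for 48 h with human gp100, kept for another 48 h in human IL-2, electroporated with mRNA and lysed 24 h later for bulk RNA sequencing.

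There were 5 groups of 2 libraries. The mixture group received mRNA for a single-chain IL-12 (scIL-12) together with mRNA for DRIL18, a variant of IL-18 that resists its decoy receptor. The IL12 group received scIL-12 mRNA alone, and the DRIL18 group DRIL18 mRNA alone. Mock cells carried the label of electroporated cells, with their mRNA, if any, not given in the sources used here. NoEp cells were labelled wild type in place of a treatment and serve here as the group without electroporation. All groups shared the transgenic receptor, the activation and the IL-2 culture, with the amount of mRNA per group and the age of the mice unstated in those sources. The labels call the libraries of a group biological replicates without naming separate animals, so the p-values reflect only the variation between these libraries, which may be technical.

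Secreted and membrane proteins enter the ER through the SEC61 channel, fold with the help of chaperones and disulfide isomerases, and leave in coated vesicles. When folding falls behind, the membrane sensors IRE1, PERK and ATF6 start the unfolded protein response, which raises chaperone, degradation and export genes and, through PERK, slows translation. In lymphocytes this response is best known from antibody-secreting cells, and in effector CD8+ T cells the IRE1 target XBP1 has been linked to terminal differentiation.

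The libraries held between 31281944 and 35062545 counts in 20326 to 21358 detected genes. Levels are given as CPM, counts scaled to a common library size by the trimmed mean of M values (TMM), and differences as log2 fold changes with their standard error (SE). A gene was said to rise or fall where the adjusted p of edgeR's quasi-likelihood test, with Benjamini-Hochberg adjustment over all 15777 genes, was under 0.05. Both NoEp libraries and both mixture libraries, but neither Mock library, carried the mark "bis" in their column names (meaning not stated), as did library 2 of IL12 and of DRIL18. Mock against NoEp and mixture against Mock therefore line up fully with this mark, and only the IL12 and DRIL18 pairs separate it from the group. The 33 genes together took 1.14% of all counts in each mixture library, 0.791% and 0.768% in IL12, 0.838% and 0.848% in DRIL18, 0.748% and 0.757% in Mock, and 0.706% and 0.704% in NoEp. The mixture libraries thus stood above all others in this share. The defining genes of CD8+ T cells were present in every library, with Cd8a at 797 and 777 CPM in mixture and 919 and 903 CPM in Mock. All 11 CD8+ T cell marker genes examined fell in mixture relative to Mock, from -0.21 for Cd8a to -1.36 for Cd5 on the log2 scale. In bulk samples, fewer cells of a type and less RNA per cell cannot be told apart.

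Of the 33 genes, 29 rose in mixture relative to Mock and the other 4 did not pass the test. Among all genes tested, 63.9% passed in that comparison, 32.0% higher and 31.9% lower. Because the list was chosen with earlier results known, counts here and below describe these genes and do not test the set. The median log2 fold change of the 33 genes was 0.65, against -0.0021 over all genes tested. The mixture mean was the highest of the 5 group means for 31 of the 33, a share not computed over all genes. Ern1, Hyou1 and Manf passed a fold change of 2, which makes 3 of 33 genes, while 19.8% of all genes tested changed by 2-fold or more in either direction. With the mark as a covariate, 28 members were higher in mixture than in Mock, with the share of all genes under that setting not given here.

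**Figure D1:**
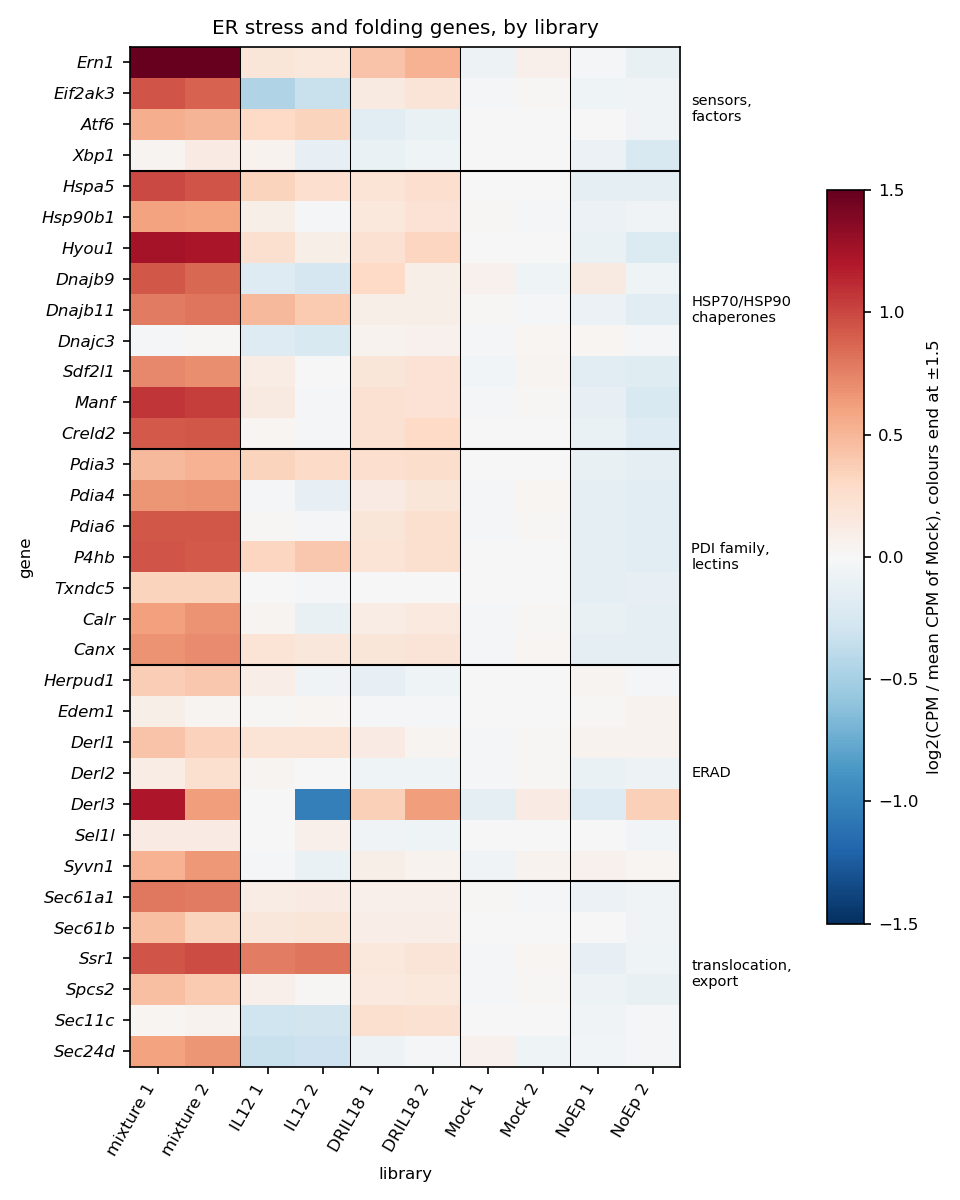
Heat map of the 33 genes (rows, grouped by role) in the 10 libraries (columns), coloured by the log2 level of each library relative to the mean of the 2 Mock libraries. Colours end at a log2 difference of 1.5 in either direction. The mixture mean is the highest of the 5 groups for 31 of 33 genes, a share not computed over all genes. Xbp1, Dnajc3, Edem1 and Sec11c did not pass against Mock in mixture.

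Each mRNA alone moved fewer of these genes than the mixture did, and also fewer of all genes tested. In IL12 cells 45.5% of the members passed, near the 46.6% of all genes tested. Of the members 11 rose and 4 fell relative to Mock, against 23.0% higher and 23.6% lower of all genes tested, with a median log2 fold change of 0.04. This split depends on scaling. With library totals in place of the trimmed mean, 8 rose and 11 fell, and the median of all genes was -0.09 on the log2 scale. In DRIL18 cells 17 rose and the other 16 did not pass, against 24.3% passing, 12.2% higher and 12.1% lower, of all genes tested, with a median of 0.16. The 3 comparisons share the Mock libraries and are therefore given side by side. All 3 raised 6 of the genes, mixture and IL12 raised 5 that DRIL18 did not pass for, mixture and DRIL18 raised 9 that IL12 did not pass for, and 7 passed in mixture and in neither single mRNA. The remaining 2 that rose in mixture, Eif2ak3 and Sec24d, fell in IL12. Shares of all genes tested with these joint patterns were not computed, so the joint counts do not set the members apart from other genes.

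Direct comparisons placed mixture above both single mRNAs. Mixture was higher than IL12 for 30 of 33 genes, against 25.8% higher, 26.3% lower and 52.2% in either direction of all genes tested, with a median log2 difference of 0.56. It was higher than DRIL18 for 30 and lower for 1, Sec11c, against 28.3% higher, 29.0% lower and 57.3% in either direction of all genes tested, with a median of 0.51. For 27 genes mixture was higher than IL12, DRIL18 and Mock by all 3 tests. The share of all genes tested that passed all 3 was not computed.

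The membrane sensors differed in how they responded. Ern1 (ENSMUSG00000020715.10) encodes IRE1, the kinase and nuclease that splices Xbp1 mRNA. Its level was 78.3 and 82.8 CPM in mixture, 15.0 and 14.7 CPM in IL12, 17.7 and 19.0 CPM in DRIL18, 12.5 and 13.9 CPM in Mock, and 13.0 and 12.2 CPM in NoEp. Both mixture libraries lay far above all 8 others, which did not reach 20 CPM. Ern1 was 6.12-fold higher in mixture than in Mock (log2 2.61 ± 0.07, SE, n = 2 each; edgeR adjusted p = 2.81e-24), the largest difference among the 33 genes. It was also 5.43-fold higher in mixture than in IL12 (edgeR adjusted p = 3.32e-23) and 4.39-fold higher than in DRIL18 (edgeR adjusted p = 2.48e-22). DRIL18 alone raised it by 0.48 ± 0.08 on the log2 scale (edgeR adjusted p = 2.7e-05), and the log2 difference of 0.17 between IL12 and Mock did not pass (edgeR adjusted p = 0.0928), except without Mock library 2 (0.26, adjusted p = 0.0451).

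Eif2ak3 (ENSMUSG00000031668.15) encodes PERK, the sensor kinase that phosphorylates the initiation factor eIF2α. It stood at 112 and 108 CPM in mixture, 42.5 and 46.1 CPM in IL12, 63.6 and 66.4 CPM in DRIL18, 57.6 and 58.5 CPM in Mock, and 55.5 and 55.8 CPM in NoEp. The IL12 libraries were the lowest and the mixture libraries the highest, with no overlap between these groups and Mock. Eif2ak3 rose 1.89-fold in mixture (log2 0.92 ± 0.05; edgeR adjusted p = 8.6e-17) and fell to 0.764 of the Mock level in IL12 (log2 -0.39 ± 0.05; edgeR adjusted p = 2.86e-07). Its 1.12-fold rise in DRIL18 (edgeR adjusted p = 0.0155) lost the call when DRIL18 library 2, Mock library 1 or Mock library 2 was left out, with adjusted p of 0.184, 0.126 and 0.0608 in that order.

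Atf6 (ENSMUSG00000026663.7), the sensor that is cut in the Golgi to release a transcription factor, had 72.6 and 71.0 CPM in mixture, 61.2 and 63.2 CPM in IL12, 44.8 and 46.7 CPM in DRIL18, 49.8 and 50.1 CPM in Mock, and 49.6 and 48.3 CPM in NoEp. It rose in mixture (log2 0.52; edgeR adjusted p = 1.09e-10) and in IL12 (log2 0.32; edgeR adjusted p = 5.15e-06), and was 0.44 log2 units higher in IL12 than in DRIL18. DRIL18 lay slightly below Mock without passing (edgeR adjusted p = 0.0731).

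Xbp1 (ENSMUSG00000020484.20) encodes the transcription factor that IRE1 activates by splicing. The counts are per gene, so spliced and unspliced Xbp1 were not separated. Its level was 140.3 and 148 CPM in mixture, 141 and 125 CPM in IL12, 127 and 130.0 CPM in DRIL18, 136 and 136 CPM in Mock, and 128 and 116 CPM in NoEp. The groups lay close together and the 2 IL12 libraries spanned the Mock level. No comparison of a cytokine group with Mock passed (edgeR adjusted p = 0.139 in mixture, 0.632 in IL12 and 0.272 in DRIL18). With library totals the IL12 difference passed at -0.12 (edgeR adjusted p = 0.0405). Total Xbp1 was higher in mixture than in DRIL18 (log2 0.16; edgeR adjusted p = 0.0053), a call lost with library totals (0.0768), without mixture library 2 (0.0832) and without DRIL18 library 1 (0.0562).

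**Figure D2:**
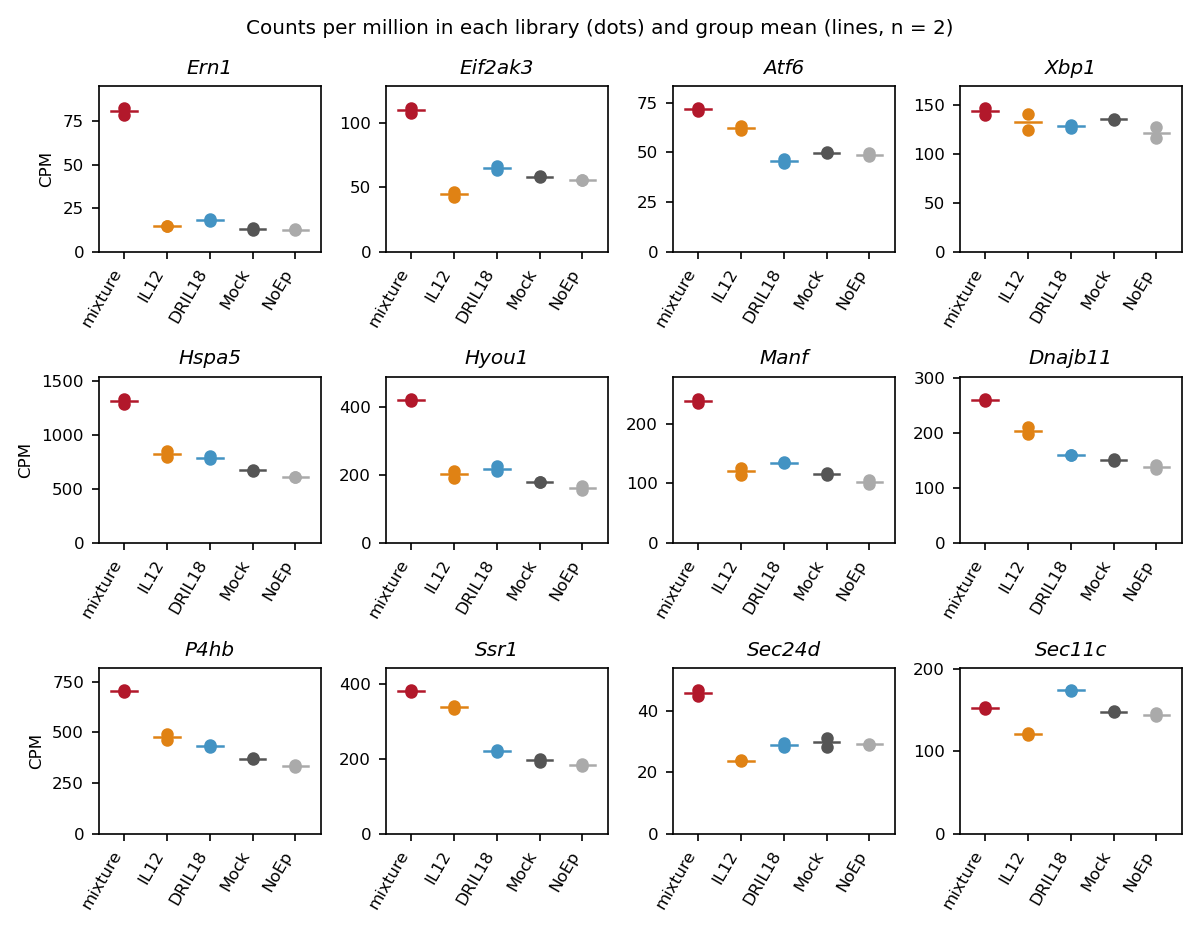
Levels in TMM-scaled CPM (vertical axes start at 0) of 12 of the genes in the 2 libraries (points) of mixture, IL12, DRIL18, Mock and NoEp, with the group mean as a line. Ern1 reaches 78.3 and 82.8 CPM in mixture while the other 8 libraries stay under 20 CPM, and Xbp1 shows no such step.

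Of the 9 ER members of the chaperone group built around the HSP70 and HSP90 proteins, 8 rose in mixture, with a median log2 fold change of 0.89 over all 9. Hspa5 (ENSMUSG00000026864.14) encodes BiP, the ER HSP70 that holds the sensors inactive. It had 1340.3 and 1294 CPM in mixture, 852 and 799 CPM in IL12, 775 and 802 CPM in DRIL18, 671 and 675 CPM in Mock, and 609 and 609.9 CPM in NoEp. All 4 electroporated groups were above NoEp, and mixture was above all. Hspa5 rose 1.96-fold in mixture (log2 0.97 ± 0.04; edgeR adjusted p = 1.5e-20), by 0.29 log2 units in IL12 and by 0.23 in DRIL18.

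Hyou1, an HSP70 relative that serves BiP as nucleotide exchange factor, had 426 and 419 CPM in mixture, 212 and 191 CPM in IL12, 210.4 and 225 CPM in DRIL18, 179 and 181 CPM in Mock, and 167 and 156 CPM in NoEp. It rose 2.35-fold in mixture (log2 1.23 ± 0.04; edgeR adjusted p = 4.19e-21) and by 0.28 log2 units in DRIL18. Its rise of 0.16 log2 units in IL12 was lost without IL12 library 1 (log2 0.09, edgeR adjusted p = 0.138) and with library totals (edgeR adjusted p = 0.145). Manf, a secreted ER stress protein that binds BiP, had 242 and 236 CPM in mixture, 126 and 114 CPM in IL12, 135 and 134 CPM in DRIL18, 114 and 117 CPM in Mock, and 106 and 98.4 CPM in NoEp. Its rise in mixture was 2.07-fold (log2 1.05 ± 0.04; edgeR adjusted p = 2.83e-19), and its IL12 libraries overlapped those of Mock.

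Creld2, a chaperone-associated protein secreted under ER stress, had 94.3 and 94.7 CPM in mixture, 50.7 and 48.9 CPM in IL12, 58.4 and 61.4 CPM in DRIL18, 49.6 and 49.9 CPM in Mock, and 46.4 and 43.4 CPM in NoEp. It rose by 0.93 log2 units in mixture and 0.27 in DRIL18, and IL12 spanned the Mock values. Sdf2l1, a cofactor of BiP and ERdj3, had 152 and 149.7 CPM in mixture, 99.97 and 92.9 CPM in IL12, 105 and 108 CPM in DRIL18, 89.9 and 95.1 CPM in Mock, and 82.6 and 81.7 CPM in NoEp. Its rise of 0.20 log2 units in DRIL18 was lost without Mock library 1 (edgeR adjusted p = 0.0534). Hsp90b1, the ER HSP90 called GRP94, and Dnajb9, the J protein ERdj4, rose in mixture by 0.60 and 0.89 log2 units, and DRIL18 raised Hsp90b1 by 0.18.

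Dnajb11, the J protein ERdj3 that hands clients to BiP, responded to IL12. It had 259 and 263 CPM in mixture, 210.4 and 198 CPM in IL12, 159.9 and 160.5 CPM in DRIL18, 153 and 149 CPM in Mock, and 142 and 134 CPM in NoEp. The IL12 libraries lay between mixture and the rest, and the log2 rise was 0.79 in mixture and 0.44 in IL12 (edgeR adjusted p = 1.31e-10 for IL12). Dnajc3 encodes P58IPK, an inhibitor of PERK, and was the chaperone gene that did not pass in mixture, at 215 and 220.2 CPM in mixture, 189.6 and 186 CPM in IL12, 227 and 227 CPM in DRIL18, 214 and 221 CPM in Mock, and 223 and 215 CPM in NoEp. IL12 lowered it by 0.21 log2 units (-0.21; edgeR adjusted p = 1.79e-05), with both libraries under every other library.

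All 7 disulfide isomerases and lectin chaperones rose in mixture, by 0.34 to 0.93 log2 units (median 0.67). P4hb, the isomerase PDI, had 711 and 699 CPM in mixture, 464 and 491 CPM in IL12, 428 and 437 CPM in DRIL18, 368 and 372 CPM in Mock, and 338 and 329.9 CPM in NoEp. Its groups stood in that order without overlap, with log2 rises of 0.93 in mixture, 0.37 in IL12 (edgeR adjusted p = 6.13e-10) and 0.23 in DRIL18. Pdia6, an isomerase that tempers IRE1 and PERK signalling, had 474 and 471 CPM in mixture, 251 and 245 CPM in IL12, 282 and 291 CPM in DRIL18, 245 and 249.8 CPM in Mock, and 225 and 221 CPM in NoEp. It rose by 0.93 in mixture and 0.21 in DRIL18, and IL12 overlapped Mock.

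Pdia3, the isomerase ERp57 that works with calnexin and calreticulin and in MHC class I loading, rose in all 3 cytokine groups. It had 1199 and 1227 CPM in mixture, 1083 and 1046 CPM in IL12, 1023 and 1031 CPM in DRIL18, 855 and 859 CPM in Mock, and 793 and 773 CPM in NoEp. The groups stood in that order without overlap, and the log2 rise was 0.50 in mixture, 0.31 in IL12 and 0.26 in DRIL18. Calr (calreticulin) and Canx (calnexin), the lectin chaperones of glycoprotein folding, rose in mixture by 0.65 and 0.69. Canx also rose by 0.18 in IL12 and 0.19 in DRIL18, while the DRIL18 rise of 0.13 in Calr was lost without DRIL18 library 2 or Mock library 1 (edgeR adjusted p = 0.141 and 0.124), and likewise that of the isomerase Pdia4 (0.16; adjusted p = 0.101 and 0.109 without those libraries). Txndc5, a further isomerase, rose in mixture by 0.34 and passed against Mock in neither single mRNA.

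The genes of ER-associated degradation had the smallest median change of the 5 role groups in mixture. Of these 7 genes, 6 rose in mixture with a median log2 fold change of 0.39, Derl1 rose in IL12, and no other of the 7 passed in IL12 or DRIL18. Herpud1, a scaffold of the degradation complex, had 107 and 109 CPM in mixture, 88.0 and 79.8 CPM in IL12, 75.9 and 79.0 CPM in DRIL18, 82.0 and 83.0 CPM in Mock, and 85.0 and 81.5 CPM in NoEp. Syvn1 encodes HRD1, the ubiquitin ligase at the centre of the complex, and had 101 and 110.1 CPM in mixture, 68.5 and 65.7 CPM in IL12, 74.5 and 72.7 CPM in DRIL18, 67.8 and 72.6 CPM in Mock, and 73.2 and 71.7 CPM in NoEp. In both genes the mixture libraries stood apart from the other 8, with rises of 0.39 for Herpud1 and 0.59 for Syvn1.

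Sel1l, the adaptor of HRD1, and Edem1, a mannosidase-like protein that picks glycoproteins for degradation, differed little between groups. Sel1l had 132 and 131 CPM in mixture and 121 and 121 CPM in Mock. Its rise of 0.12 lost the call with library totals (edgeR adjusted p = 0.157), with the mark on the column names as a covariate (0.198) and without Mock library 1 (0.0528). Edem1 had 404 and 392 CPM in mixture and 381 and 383 CPM in Mock and did not pass (edgeR adjusted p = 0.126). Among the derlins, which form part of the channel out of the ER, Derl1 rose by 0.39 in mixture and 0.20 in IL12, and Derl2 rose by 0.18 in mixture, a call lost without mixture library 2 (0.11; edgeR adjusted p = 0.114).

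Derl3, the derlin most tied to secretory cells, was scarce, with 91 and 60 counts (2.66 and 1.78 CPM) in mixture, 35 and 18 counts in IL12, 51 and 60 in DRIL18, 37 and 42 in Mock, and 32 and 53 in NoEp. Its rise of 0.95 ± 0.30 in mixture rested on mixture library 1 and Mock library 1. It was 0.63 (edgeR adjusted p = 0.151) and 0.82 (edgeR adjusted p = 0.0689) without those libraries.

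Of the 6 genes of translocation into and export from the ER, 5 rose in mixture, with a median of 0.52. Ssr1 encodes the alpha subunit of the translocon-associated protein complex, which helps signal peptides enter the channel. It had 378 and 385 CPM in mixture, 334 and 343 CPM in IL12, 218 and 224 CPM in DRIL18, 192 and 200.2 CPM in Mock, and 180.4 and 187 CPM in NoEp. Mixture and IL12 together stood above the other 6 libraries. Ssr1 rose 1.95-fold in mixture (log2 0.96 ± 0.04; edgeR adjusted p = 2.6e-20) and 1.73-fold in IL12 (log2 0.79 ± 0.04; edgeR adjusted p = 1.53e-17), which was the largest IL12 difference among the members that passed.

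Sec24d, a COPII coat subunit that selects cargo for export, had 44.8 and 46.8 CPM in mixture, 23.5 and 23.9 CPM in IL12, 28.2 and 29.3 CPM in DRIL18, 30.99 and 28.3 CPM in Mock, and 28.7 and 29.2 CPM in NoEp. Like Eif2ak3, it was lowest in IL12 and highest in mixture. It rose 1.55-fold in mixture (log2 0.63 ± 0.06; edgeR adjusted p = 2.72e-10) and fell in IL12 (log2 -0.32 ± 0.07; edgeR adjusted p = 0.000208). Sec11c, a catalytic subunit of the signal peptidase, had 151 and 154 CPM in mixture, 120.5 and 123 CPM in IL12, 175 and 174 CPM in DRIL18, 149 and 148 CPM in Mock, and 143 and 146 CPM in NoEp. The single mRNAs moved it in opposite directions, with log2 differences of -0.29 in IL12 (edgeR adjusted p = 3e-07) and 0.23 in DRIL18 (edgeR adjusted p = 1.66e-05), and mixture did not pass (edgeR adjusted p = 0.368).

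Sec61a1, the channel itself, had 352 and 348 CPM in mixture, 221 and 221 CPM in IL12, 214 and 215 CPM in DRIL18, and 206 and 201 CPM in Mock. It rose by 0.78 in mixture. Its smaller rise of 0.12 in IL12 was lost without Mock library 2 (edgeR adjusted p = 0.0667) and with library totals (0.523). Sec61b, the beta subunit of the channel, rose by 0.39 in mixture and by 0.17 in IL12, where library totals ended the call (edgeR adjusted p = 0.101). Spcs2, a signal peptidase subunit, rose by 0.42 in mixture and by 0.15 in DRIL18, where leaving out Mock library 1 ended the call (edgeR adjusted p = 0.0753).

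Whether the pair of mRNAs gave more than the sum of their separate log2 effects was tested with an interaction term, which is the IL12 effect in the presence of DRIL18 minus the IL12 effect alone. The term was above 0 and passed for 25 of 33 genes, against 14.6% higher, 17.1% lower and 31.6% in either direction of all genes tested, and the other 8 did not pass. The members' median was 0.38 on the log2 scale, against -0.02 over all genes tested. Ern1 had the largest interaction at 1.96 ± 0.11 (edgeR adjusted p = 1.51e-15), followed by Eif2ak3 at 1.14 ± 0.07 (edgeR adjusted p = 3.75e-14) and Sec24d at 0.99 ± 0.09 (edgeR adjusted p = 3.48e-10). Dnajb9 followed at 0.92, Hyou1 at 0.79, Manf at 0.77 and Pdia6 at 0.72.

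Of the 8 genes that did not pass, Ssr1 had an interaction of -0.00 (edgeR adjusted p = 0.995) and Pdia3 one of -0.07 (edgeR adjusted p = 0.285). The other 6 had positive estimates, among them Sel1l at 0.15 ± 0.06 (edgeR adjusted p = 0.0513), Sec61b at 0.12 ± 0.06 (0.143) and Derl3 at 0.88 ± 0.45 (0.147). Xbp1 passed with 0.20 (edgeR adjusted p = 0.0313), but not with DESeq2 (adjusted p = 0.0667) nor without either Mock library, either DRIL18 library, IL12 library 2 or mixture library 2 (edgeR adjusted p between 0.0578 and 0.254). The interactions of Dnajc3 (0.15) and Derl2 (0.22) were likewise lost without single libraries, with edgeR adjusted p up to 0.152 for Dnajc3 and 0.147 for Derl2. Leaving out mixture library 2, IL12 library 2, DRIL18 library 2 or Mock library 2 ended both calls, and leaving out DRIL18 library 1 ended that of Dnajc3.

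**Figure D3:**
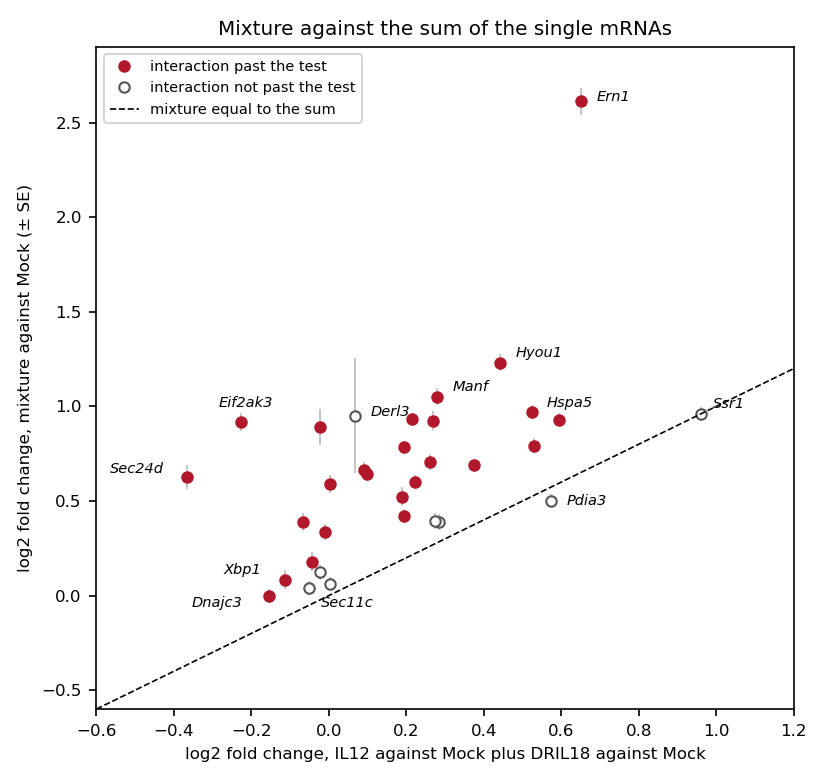
Log2 fold change of mixture against Mock (vertical axis, bars of 1 SE) of the 33 genes plotted over the IL12 and DRIL18 values against Mock added together (horizontal axis), with a dashed line where both are equal and filled points where the interaction passed. Ern1 lies 1.96 above the line, Eif2ak3 1.14 and Sec24d 0.99, and Ssr1 and Pdia3 lie close to it.

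Between the single mRNAs, 5 of 33 genes were higher in IL12 than in DRIL18 and 17 were lower, against 18.9% higher, 20.6% lower and 39.5% in either direction of all genes tested. The 5 were Ssr1 (log2 0.61), Atf6 (0.44), Dnajb11 (0.35), P4hb (0.14) and Derl1 (0.12). With library totals P4hb and Derl1 did not pass (edgeR adjusted p = 0.289 and 0.695). P4hb also lost its call without IL12 library 2 (0.0506), and Derl1 with DESeq2 (0.0543) and without IL12 library 1 (0.0757), IL12 library 2 (0.0714) or DRIL18 library 2 (0.296). Among the 17 were Derl3 (-0.92), Eif2ak3 (-0.55), Sec11c (-0.52), Dnajb9 (-0.42), Ern1 (-0.31), Sec24d (-0.28), Dnajc3 (-0.27) and Creld2 (-0.27). The scarce Derl3 did not pass with DESeq2 (adjusted p = 0.0892). Its difference was -0.50 without IL12 library 2 and -0.78 without DRIL18 library 2, and it was not called there. Dnajb9 was -0.31 and not called without DRIL18 library 1. The count of genes lower in IL12 was 9 without IL12 library 2 and 11 without DRIL18 library 2.

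In the comparison of Mock with NoEp, which lines up with the mark "bis", 10 of 33 genes were higher in Mock, against 3.34% higher, 3.64% lower and 6.98% in either direction of all genes tested, with log2 differences of 0.13 to 0.18. These were Hspa5, Hyou1, Sdf2l1 and Manf among the chaperones, and Pdia3, Pdia4, Pdia6, P4hb, Calr and Canx among the isomerases and lectin chaperones. Each of these calls was lost when some library was left out. The count was 1 without Mock library 1 and 1 with the mark on the column names as a covariate, and 0 in edgeR without Mock library 2 or NoEp library 2, with 14 and 12 members at an unadjusted p under 0.05.

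Promoter sequences are shown because BiP and related genes are known to be induced through short elements, which allows a reader to see which of the genes carry them. RefSeq windows from 250 bases before to 50 bases after the annotated start (build GRCm38.p6) were matched for 27 of the 33 genes, and Hyou1, Manf, Sec11c, Sec61a1, Derl1 and Atf6 had no entry. The ER stress response element (ERSE) was searched on both strands as CCAAT, any 9 bases and CCACG. It was found for 9 of these 27 genes, in 9 of their 30 windows, and in 0.119% of all 32851 windows. ERSE-II, searched as ATTGG, any base and CCACG, was found for 2 of the 27 genes and in 0.0365% of all windows. The UPRE core TGACGTGG was found for 2 genes and in 0.676% of all windows. Each was in 2 of the 30 member windows. Such elements are known from BiP and related genes, so their share among the members does not test the list. The ERSE sites follow on the strand of the gene, 5′ to 3′, with the element in capitals and 10 bases on each side, so that an element beginning CGTGG lies on the opposite strand.
Hspa5, chr2:34772015-34772053: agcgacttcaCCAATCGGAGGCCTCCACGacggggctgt
Hsp90b1, chr10:86705628-86705666: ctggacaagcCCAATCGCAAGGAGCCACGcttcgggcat
Hsp90b1, chr10:86705523-86705561: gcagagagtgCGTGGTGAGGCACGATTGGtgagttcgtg
Dnajc3, chr14:118937817-118937855: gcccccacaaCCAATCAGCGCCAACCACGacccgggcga
Creld2, chr15:88819510-88819548: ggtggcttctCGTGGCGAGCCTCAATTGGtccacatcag
Pdia6, chr12:17266481-17266519: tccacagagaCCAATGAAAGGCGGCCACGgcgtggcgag
Calr, chr8:84847065-84847103: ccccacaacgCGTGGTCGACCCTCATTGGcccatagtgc
Canx, chr11:50325790-50325828: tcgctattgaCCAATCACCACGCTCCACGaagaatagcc
Derl3, chr10:75893232-75893270: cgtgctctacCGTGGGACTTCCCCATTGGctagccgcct
Syvn1, chr19:6046522-6046560: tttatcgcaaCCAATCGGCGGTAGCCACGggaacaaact

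The Hspa5 element began 65 bases before the annotated start (position -65), and Hsp90b1 held 2 elements. The other elements, shown in the same way, were the ERSE-II of Herpud1 and the UPRE cores of Sec24d and Txndc5. The ERSE-II of Dnajb11 lay after its annotated start and is not shown, and no printed element overlapped another.
Herpud1, chr8:94386367-94386397: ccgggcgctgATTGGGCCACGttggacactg
Sec24d, chr3:123267460-123267487: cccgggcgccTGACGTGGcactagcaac
Txndc5, chr13:38528035-38528062: gcctcgccgcTGACGTGGcgctagccgc

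Of the 9 genes with an ERSE, 8 rose in mixture, with log2 fold changes from -0.00 for Dnajc3 to 0.97 for Hspa5 and a median of 0.69. Of the 18 matched genes without an ERSE, 16 rose, with a median of 0.56, so most genes of either kind rose in that comparison. In mixture against IL12 the medians were 0.67 with an ERSE and 0.36 without, and in mixture against DRIL18 0.51 and 0.49. For the interaction they were 0.55 and 0.30. Differences between these sets were not tested. Ern1, which had the largest difference, had none of the 3 motifs in its window. Outside the 33 genes, 28 genes had an ERSE match in a window, 25 were found in the counts by symbol or RefSeq synonym, and 11 were tested. Of these 11, the oxidase gene Ero1lb (Ero1b in RefSeq) rose in mixture (log2 0.39), and 4 fell, Adcy3 (-0.54), Pan2 (-0.59), Acacb (-1.62) and Gm20560 (-2.61). The other 6 did not pass, and over all genes tested 32.0% were higher and 31.9% lower. A motif match describes letters in a window and no binding was measured.

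The wider machinery of the ER was followed through 7 further lists with 165 tested genes. In mixture 112 of the 165 rose and 24 fell, with a median log2 fold change of 0.36. In IL12 74 rose and 26 fell (median 0.10), and in DRIL18 35 rose and 12 fell (median 0.05). Over all genes tested, 32.0% were higher and 31.9% lower in mixture, 23.0% and 23.6% in IL12, and 12.2% and 12.1% in DRIL18. The same shares apply to each list below. All 3 comparisons again share the Mock libraries. Against NoEp, Mock was higher for 10 of the 165, and for 3.34% of all genes tested.

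**Figure D4:**
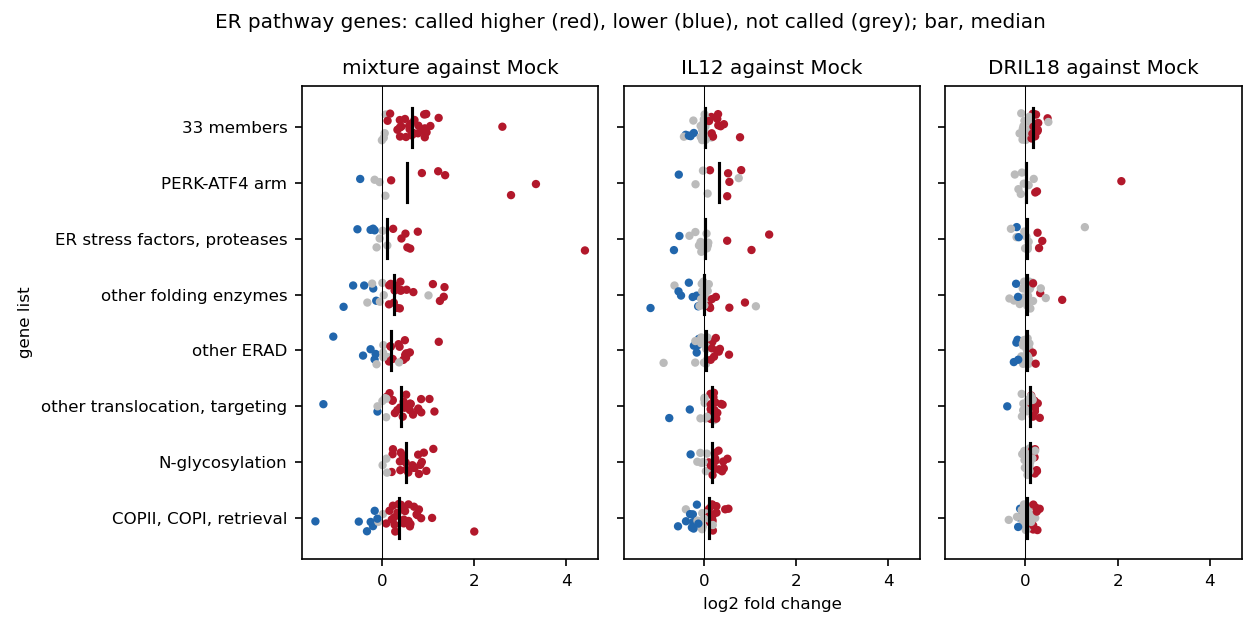
Log2 fold changes against Mock of the tested genes (points) of the 33 members and the 7 further ER lists in mixture, IL12 and DRIL18, coloured by whether edgeR called them higher (red), lower (blue) or neither (grey), with a bar at each list's median. In mixture the N-glycosylation list has 20 of 23 genes higher and the list of stress factors and proteases 7 of 15. Among all genes tested 32.0% are higher in mixture.

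The PERK branch acts through the transcription factor ATF4 and its targets. Of its 10 tested genes, 6 rose and 1, Nck1 (log2 -0.47), fell in mixture. Atf4 had 362 and 383 CPM in mixture, 219.8 and 203 CPM in IL12, 168 and 165 CPM in DRIL18, 145 and 142 CPM in Mock, and 135 and 130.0 CPM in NoEp, and the groups did not overlap. Atf4 rose by 1.37 ± 0.04 in mixture, 0.56 in IL12 and 0.21 in DRIL18. Atf3, a stress-induced transcription factor, rose by 2.80 ± 0.15 in mixture and 2.08 in DRIL18 and by 0.53 in IL12, and Chac1, an ATF4 target that degrades glutathione, by 3.34 ± 0.27 in mixture. Ddit3, the death-associated factor CHOP, named here after its values were seen, had 11.7 and 10.1 CPM in mixture and 13.0 and 11.3 CPM in Mock and did not pass (edgeR adjusted p = 0.186). Trib3, a CHOP target also named after its values were seen, did not pass in mixture (edgeR adjusted p = 0.633) and fell in IL12 by 0.54 on the log2 scale. To complete the list, Ppp1r15a, Eif2s1 and Nfe2l2 rose in mixture by 1.22, 0.87 and 0.20. Ppp1r15b did not pass in mixture (edgeR adjusted p = 0.075).

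Among 15 tested stress factors and proteases, 7 rose and 4 fell in mixture, against 32.0% higher and 31.9% lower of all genes tested. Bhlha15 encodes MIST1, a transcription factor of secretory cells, and had 5.58 and 5.60 CPM in mixture, 0.163 and 0.377 CPM in IL12, 0.664 and 0.619 CPM in DRIL18, 0.396 and 0.119 CPM in Mock, and 0.0314 and 0.390 CPM in NoEp. It was well above 1 CPM in the mixture libraries only, and rose by 4.40 ± 0.40 on the log2 scale, with an interaction of 3.05. Mbtps2, the protease that completes ATF6 cleavage, rose by 0.78 and Traf2, an adaptor of IRE1, by 0.61. Map3k5, the kinase ASK1, fell in mixture (-0.25) and rose in IL12 (1.04). Yy1 (-0.19) and Tmbim6 (-0.16), an ER membrane protein that limits IRE1, fell in mixture.

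Of 29 other folding enzymes 18 rose and 5 fell in mixture. Ero1l, the oxidase that recharges PDI, had 226 and 229 CPM in mixture, 153 and 201 CPM in IL12, 119 and 119 CPM in DRIL18, 95.3 and 95.2 CPM in Mock, and 88.2 and 97.1 CPM in NoEp. It rose by 1.26 in mixture, 0.90 in IL12 and 0.32 in DRIL18. Pdia5, an isomerase linked to ATF6 activation, rose by 1.11 in mixture and 0.80 in DRIL18 and fell in IL12 (-1.15). Nucb2, a calcium-binding protein, rose by 1.36 in mixture, while Qsox1 (-0.83), Tmx4 (-0.62) and Prdx4 (-0.38), a sulfhydryl oxidase, a thioredoxin-like protein and a peroxiredoxin, fell, and Prdx4 rose in IL12 (0.56).

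Other ER-associated degradation genes split further, with 14 of 25 higher and 5 lower in mixture. Selenos, which ties the ATPase p97 to the ER membrane, had 109 and 109.6 CPM in mixture, 60.4 and 58.5 CPM in IL12, 53.1 and 50.8 CPM in DRIL18, 46.8 and 46.3 CPM in Mock, and 47.1 and 43.0 CPM in NoEp. It rose by 1.23 in mixture, Vcp, which encodes p97, by 0.61 and the ubiquitin-conjugating enzyme gene Ube2g2 by 0.55. Ngly1, the enzyme that strips glycans from extracted proteins, had 62.3 and 60.6 CPM in mixture, 128 and 119 CPM in IL12, 109.9 and 104 CPM in DRIL18, 126 and 129 CPM in Mock, and 123 and 129.5 CPM in NoEp. It fell in mixture (-1.05), as did the lectin gene Os9 (-0.41) and Herpud2 (-0.25).

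In N-glycosylation 20 of 23 genes rose in mixture and the other 3 did not pass, with a median of 0.53. Gfpt1, the entry enzyme of the hexosamine pathway, had 183 and 195 CPM in mixture, 99.2 and 100.003 CPM in IL12, 101 and 105 CPM in DRIL18, 87.6 and 86.7 CPM in Mock, and 83.9 and 82.2 CPM in NoEp. It rose by 1.12 in mixture, the mannosyltransferase gene Alg9 by 0.96 and Gmppb, which makes GDP-mannose, by 0.91.

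Of 28 other translocation and targeting genes 21 rose and 2 fell in mixture. Srprb and Srpr, the subunits of the receptor for the signal recognition particle, rose by 1.14 and 0.85, and the channel subunit Sec61g by 1.03, while Tram2 (-1.27) and Tram1 (-0.10), proteins next to the channel, fell. Of 35 genes of vesicle coats and retrieval 26 rose and 7 fell. Lman1, the cargo receptor ERGIC-53, had 143 and 155 CPM in mixture, 78.5 and 74.9 CPM in IL12, 81.0 and 82.9 CPM in DRIL18, 66.7 and 73.4 CPM in Mock, and 65.2 and 63.9 CPM in NoEp. It rose by 1.09, its partner Mcfd2 by 0.85 and Arfgap3, a regulator of COPI vesicles, by 0.80. Tango2 (-0.50), the Golgi fusion protein gene Stx5a (-0.32) and the COPII subunit gene Sec24b (-0.24) fell, the last in contrast to its relative Sec24d.

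Marker genes of cell types were also compared between mixture and Mock, where 32.0% of all genes tested were higher and 31.9% lower. All 11 CD8+ T cell genes on the list fell in mixture relative to Mock, with summed levels of 3873 to 3893 CPM in mixture, 4721 to 4865 CPM in IL12, 5148 to 5223 CPM in DRIL18, 5601 to 5692 CPM in Mock and 5742 to 5956 CPM in NoEp. In IL12 and in DRIL18 8 of the 11 fell, against 23.6% and 12.1% lower of all genes tested. The 8 B cell genes summed to 25.9 to 27.3 CPM in mixture and 22.0 CPM in each Mock library. Of these genes 3 were higher and 2 lower, near the shares over all genes. The 8 plasma cell genes summed to 533.6 to 550.4 CPM in mixture and 665.4 to 668.8 CPM in Mock, nearly all of it Ighm, which fell. Of the 6 tested, Igkc and Ighg1 rose, with Igkc at 16.5 and 17.1 CPM in mixture against 7.698 and 7.496 CPM in Mock, and Ighg1 under 1 CPM in every library. In that list Mzb1 stayed under 0.30 CPM in every library, and Tnfrsf17 was at 0 in all mixture, IL12, Mock and NoEp libraries. The 12 myeloid and dendritic genes summed to 15.2 to 15.5 CPM in mixture and 11.5 CPM in Mock, with Siglech and S100a8 at 0 throughout, and of the 4 tested 2 rose and 2 fell. The 5 NK genes summed to 1.40 to 1.51 CPM in mixture and 13.4 to 13.9 CPM in Mock. Nearly all of that was Eomes, which activated CD8+ T cells also express and which fell (log2 -3.43), while Ncr1, Klrb1c, Klra8 and Klra4 stayed under 0.30 CPM in every library. The 6 CD4+ and regulatory T cell genes summed to 182.5 to 188.1 CPM in mixture and 209.5 to 215.6 CPM in Mock, with Foxp3, Zbtb7b and Ctla4 lower and Cd40lg higher. Most of that sum was Ctla4, at 152.2 and 152.9 CPM in mixture and 168.5 and 171.2 CPM in Mock. Cd4 had 4.934 and 5.575 CPM in mixture and 4.585 and 5.474 CPM in Mock and did not pass (edgeR adjusted p = 0.724). The part of these shifts in the results was not tested.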

How the data were processed

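The deposited table held raw read counts per gene for all 10 libraries; per the submitters' processing notes the authors used STAR 2.7.9, featureCounts, edgeR and limma with build mm39. Libraries came from a stranded poly(A) kit per the labels' protocols. With the annotation release, the strand setting and the treatment of multimapping reads not given in the sources used here, overlapping genes and close paralogs are uncertain. A deposited log2 table was not used. Symbols were taken from GENCODE M21 by Ensembl identifier without version, with 52083 of 55359 identifiers matched and 3276 not. All 10 columns matched a labelled sample.

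In R 4.3.3, edgeR 4.0.16 filtered low counts (filterByExpr, leaving 15777 genes), scaled libraries by TMM (factors 0.9547 to 1.0273) and fitted 1 quasi-likelihood model to the 5 groups (5 residual degrees of freedom). Calls used an adjusted p under 0.05. The 8 contrasts were mixture, IL12 and DRIL18 against Mock, Mock against NoEp, the 3 contrasts among cytokine groups and the interaction. Replicates differed by more than counting noise in every group. The scripts were tested on simulated data.

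The members, gene lists and tests were chosen with earlier results of these data known. Library values are given for the 10 called members with the largest change in each comparison with Mock, for Hspa5, Xbp1, Ern1, Eif2ak3 and Atf6 and for members called in opposite directions. Others were added for their role. From each further list, the 3 called genes with the largest change in each direction and a mean of at least 5 CPM in a group were named. Alternatives were DESeq2 1.42.0, limma-voom with limma 3.58.1, other scalings, no filter, fitting only the libraries compared, a replicate block, the mark "bis" of some column names (meaning not given in the sources used here) as a covariate, and leaving out each library. Promoter sequences came from RefSeq tables of GRCm38.p6, another build than the counts.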

Additional observations from a re-analysis of the deposited data

Results flagged for a closer look

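The effect of IL12 on Eif2ak3 differed with DRIL18. IL12 against Mock gave a log2 difference of -0.39 and mixture against DRIL18 one of 0.75, and the difference between these effects was 1.14 (edgeR adjusted p = 3.75e-14). Sec24d behaved the same way, with -0.32 for IL12 against Mock, 0.67 for mixture against DRIL18 and an interaction of 0.99 (edgeR adjusted p = 3.48e-10). For both genes every IL12 library lay below both Mock libraries, and every mixture library lay above both DRIL18 libraries.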

How the results depend on the processing

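Each group held 2 libraries, so a spread rests on few samples, and low genes such as Derl3 were limited by depth. The mixture against Mock result held in every setting tried, with 27 to 29 of 33 genes called when single libraries were left out, and 9015 to 10319 genes in all. With library totals without TMM, 11 members fell in IL12 against Mock, 2 fell in mixture against DRIL18 and 3 were higher in IL12 than in DRIL18. The median of all genes was then -0.0598 in mixture against Mock and -0.0939 in IL12 against Mock. With TMM these medians were -0.0021 and -0.0065. Mock against NoEp was the least stable, with 172 genes and 1 member (higher) under the "bis" covariate, and 242 to 1399 genes and 0 to 13 members when libraries were left out. DRIL18 against Mock gave 2525 to 4125 genes and 12 to 17 members, and 9 to 17 members were lower in IL12 than in DRIL18. The Xbp1 difference between IL12 and Mock was -0.03, but 0.003 under the covariate and 0.056 without IL12 replicate 2, and passed at -0.12 with library totals (edgeR adjusted p = 0.0405). Ern1 in IL12 passed without Mock replicate 2 (0.26; adjusted p = 0.0451). The causes were not tested.

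Same-numbered libraries showed little shared deviation, with correlations of their deviations from -0.032 to 0.049. This does not exclude that the replicate numbers pair the libraries. With a replicate block 29 members were called in mixture against Mock, of 10051 genes called in all. IL12 gave 15 members of 7316 genes called, and DRIL18 17 of 3814. Mock against NoEp gave 11 of 1103 and the interaction 25 of 4980.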

Other observations

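The 2 libraries of a group differed slightly in these genes. In IL12, 23 of the 33 genes were higher in library 1 and the median size of the log2 difference between the libraries was 0.06, against 0.03 in mixture, 0.04 in DRIL18, 0.03 in Mock and 0.04 in NoEp. In DRIL18 24 of the 33 and in Mock 25 of the 33 were higher in library 2. Shares over all genes tested were not computed, so these counts cannot be told apart from an offset of the whole library.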
